A study of Mus musculus with 12 samples.

Results

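The genes described here are 32 genes used as markers or functional components of cerebellar granule cells: GABA and glutamate receptor subunits, transcription factors of the granule lineage with 1 RNA regulator, secreted, adhesion and synaptic proteins, and intracellular signalling proteins. They were taken as a list, and each gene was read on the probe set assigned to it alone by the array annotation, the brightest by its mean over 12 arrays where there were several. Of the 32 genes, 31 had such a probe set, and all 31 lay above the filter that removed the dimmest 40% of probe sets. They are 31 of the 12672 genes tested. Etv1, a transcription factor of mature granule cells, was not analysed, because its probe sets are listed with another symbol as well.

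Granule cells are the small glutamatergic neurons of the inner layer of the cerebellar cortex and the most numerous neurons of the brain. They receive mossy fibre input, are held back by GABA released from Golgi cells, and send their axons, the parallel fibres, through the molecular layer to Purkinje cells, the output neurons of the cortex. Because granule cells fill most of the cerebellum, their transcripts make up a large part of its RNA. Several of the genes are not unique to them: Rbfox3 is used by most neurons, Nfia, Nfib and Nfix also by glia, Gabrb2 also by Purkinje cells, and Eomes in the adult cerebellum mainly by unipolar brush cells, a small excitatory interneuron.

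Total RNA from whole cerebellum of C57BL/6 mice aged 6 weeks was hybridised to expression arrays, with 3 mice in each of 4 groups. The 118Q knockin mice (MPI 118Q/118Q in the labels) are homozygous for an allele named for 118 glutamines, and the 118Q wild type mice are their littermates. The 11Q knockin mice (MPI 11Q/11Q) are homozygous for an allele named for 11 glutamines, and the 11Q wild type mice are theirs. The knockin models spinocerebellar ataxia type 6, in which a glutamine tract encoded at the end of Cacna1a is lengthened; the gene encodes the pore of P/Q-type calcium channels. The labels name no Cre driver and no transgene. The tissue holds all cell types of the cerebellum, so fewer cells of a type and less RNA per cell cannot be told apart. Values are log2 expression per probe set, ± beside a group mean is the standard deviation of its 3 arrays, and ± beside a difference is the standard error of the limma fit. A difference was called where its two-sided p, adjusted across the 12672 genes by the Benjamini-Hochberg method, was below 0.05.

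The 118Q knockin arrays stood apart from the other 9 in the 18S control signal, in the trend of gene values with genomic length and, narrowly, in the Gapdh control signal. The mean signal of the 3 control probe sets for 18S ribosomal RNA was 8.80 ± 0.37 in 118Q knockin arrays and 9.92 ± 0.35 in 118Q wild type arrays, with 10.24 ± 0.13 in 11Q knockin arrays and 10.44 ± 0.17 in 11Q wild type arrays. The rank correlation of an array's deviations with gene span, the genomic length of the annotated gene, was -0.33 to -0.25 in the 118Q knockin arrays and -0.044 to 0.23 in the other 9. The Gapdh control signal, 3 prime minus 5 prime, was -0.16 to -0.12 in 118Q knockin arrays, below the -0.11 to 0.13 of the other 9. That of actin averaged 1.09 ± 0.053 in 118Q knockin and 1.21 ± 0.095 in 118Q wild type arrays, and 1.31 in both 11Q groups. The actin values overlapped, reaching 1.15 in 118Q knockin arrays and starting at 1.13 in 118Q wild type arrays. Pairs of arrays correlated at 0.980 to 0.995 and none were identical. Cacna1a, whose probe set is not known to report the knocked-in part, read 5.61 ± 0.094 in 118Q knockin and 5.94 ± 0.35 in 118Q wild type arrays, and 6.29 ± 0.12 in 11Q knockin and 6.36 ± 0.12 in 11Q wild type arrays. The part of these array differences in the results below was not tested beyond the fits given beside them.

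The granule cell markers were measured in every array. The 8 defining markers read at least 4.92 in each of the 12 arrays, while none of 8 markers of forebrain excitatory neurons passed the filter, 6 of them having a probe set and the brightest, Neurod6, averaging 1.54. Gabra6, the GABA receptor subunit that defines mature granule cells, read 10.42, 10.49 and 10.54 in 118Q knockin arrays, 10.38, 10.58 and 10.58 in 118Q wild type arrays, 10.49, 10.52 and 10.45 in 11Q knockin arrays and 10.57, 10.43 and 10.47 in 11Q wild type arrays. Neurod1, the basic helix-loop-helix factor that drives and maintains granule cell differentiation, read 10.47, 10.41 and 10.51 in 118Q knockin arrays, 10.57, 10.63 and 10.41 in 118Q wild type arrays, 10.49, 10.52 and 10.60 in 11Q knockin arrays and 10.47, 10.49 and 10.42 in 11Q wild type arrays. All 12 values of each gene lay within a narrow band, and the 4 groups overlapped. Their standard deviations within groups were 0.076 for Gabra6 and 0.070 for Neurod1.

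Cbln3, a secreted cerebellin that granule cells release together with Cbln1, read 9.87, 9.66 and 9.50 in 118Q knockin arrays, 9.59, 9.46 and 9.94 in 118Q wild type arrays, 9.69, 9.79 and 9.78 in 11Q knockin arrays and 9.78, 9.77 and 9.79 in 11Q wild type arrays. Rbfox3, the splicing regulator detected by NeuN antibodies, read 9.96, 9.99 and 10.01 in 118Q knockin arrays, 9.999, 10.02 and 10.43 in 118Q wild type arrays, 9.92, 10.04 and 10.03 in 11Q knockin arrays and 9.97, 10.17 and 10.33 in 11Q wild type arrays. The third wild type array was the highest of its group for Rbfox3 in both lines, and no knockin group was separate from its littermates for either gene. Slc17a7, the vesicular glutamate transporter of parallel fibre terminals, read 5.93, 5.24 and 5.87 in 118Q knockin arrays, 5.52, 5.98 and 4.99 in 118Q wild type arrays, 6.24, 6.42 and 5.90 in 11Q knockin arrays and 6.33, 5.88 and 4.92 in 11Q wild type arrays. Its arrays were widely scattered in every group, and its standard deviation within groups was 0.494.

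**Figure D1:**
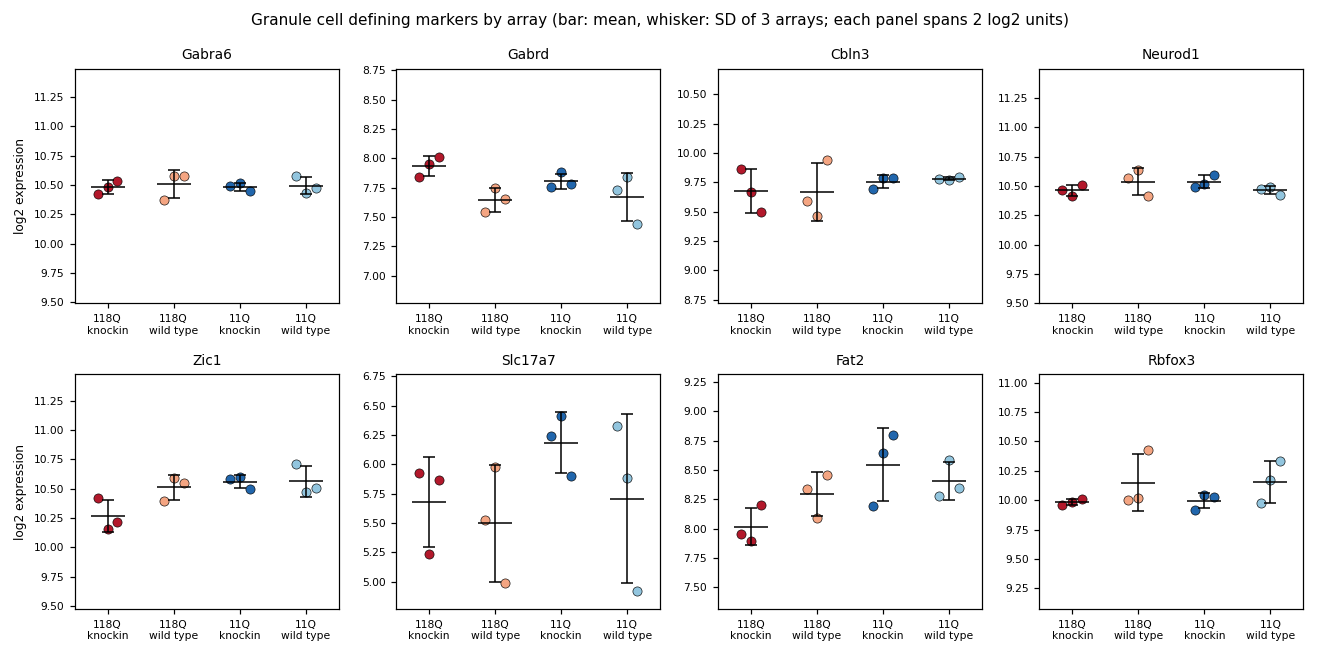
Log2 expression of the 8 defining granule cell markers by array, with groups from left to right as 118Q knockin, 118Q wild type, 11Q knockin and 11Q wild type; points are arrays, bars group means and whiskers SD of 3 arrays. Gabra6 and Neurod1 lie within a narrow band in all 12 arrays, whereas Slc17a7 is widely scattered within groups.

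The promoters of 4 genes are shown because they belong to the members on which the results turn: Gabra6 and Neurod1, defining markers with little spread, and Reln and Tiam1, which were called lower in 118Q knockin than in 11Q knockin arrays. Each window runs from 250 bases before to 50 bases after the gene's start, 5′ to 3′ on the gene's strand, from RefSeq on GRCm38.p6. Capitals mark a nuclear factor I half-site (TTGGC or its reverse complement GCCAA), searched together with the E-box used by NEUROD1 (CAGATG or its reverse complement CATCTG). The half-site and the E-box can share letters at their ends, and windows were counted for each motif separately. For Tiam1 1 of 2 listed windows is shown.
Gabra6 (chr11:42321023-42321322, minus strand): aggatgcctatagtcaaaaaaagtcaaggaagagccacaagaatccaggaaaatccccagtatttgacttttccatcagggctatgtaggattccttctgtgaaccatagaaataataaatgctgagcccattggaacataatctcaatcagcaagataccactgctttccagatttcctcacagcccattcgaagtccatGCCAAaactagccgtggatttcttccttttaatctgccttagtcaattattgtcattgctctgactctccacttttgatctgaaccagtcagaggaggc
Neurod1 (chr2:79456587-79456886, minus strand): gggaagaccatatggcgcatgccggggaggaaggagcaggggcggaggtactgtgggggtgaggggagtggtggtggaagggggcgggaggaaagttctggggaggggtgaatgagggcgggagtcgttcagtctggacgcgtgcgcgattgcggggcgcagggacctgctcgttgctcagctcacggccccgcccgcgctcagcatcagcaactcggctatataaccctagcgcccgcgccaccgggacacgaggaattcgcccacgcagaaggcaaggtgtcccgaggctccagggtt
Reln (chr5:22344656-22344955, minus strand): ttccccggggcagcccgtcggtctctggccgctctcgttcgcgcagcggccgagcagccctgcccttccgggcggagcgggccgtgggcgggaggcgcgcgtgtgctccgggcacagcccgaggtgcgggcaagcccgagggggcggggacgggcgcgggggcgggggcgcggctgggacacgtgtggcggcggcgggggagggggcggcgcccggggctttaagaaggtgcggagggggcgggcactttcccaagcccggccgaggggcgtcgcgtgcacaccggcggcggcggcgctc
Tiam1 (chr16:89974650-89974949, minus strand): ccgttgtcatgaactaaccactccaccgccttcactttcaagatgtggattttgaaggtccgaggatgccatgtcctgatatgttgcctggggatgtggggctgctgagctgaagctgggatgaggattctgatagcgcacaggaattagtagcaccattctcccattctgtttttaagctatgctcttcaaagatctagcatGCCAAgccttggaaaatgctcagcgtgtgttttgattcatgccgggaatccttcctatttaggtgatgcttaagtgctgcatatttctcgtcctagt
Gabra6 and Tiam1 each held 1 half-site, Neurod1 and Reln held none, and none of the 4 windows held the E-box. Of all 32851 windows of this length, 46.7% held the half-site and 17.2% the E-box. Windows were listed for 27 of the genes, 43 in all, of which 23 held the half-site and 9 the E-box. Gabra6 and Tiam1 windows had a GC content of 42.0% and 47.0%, Neurod1 and Reln windows 66.7% and 80.7%, and the median over all windows was 52.7%. These matches describe the letters of the windows only.

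In 118Q knockin cerebella, set against wild type littermates, the granule cell genes showed small differences in both directions and none was called. Of the 31 genes 16 lay below 0 and 15 above, with a median difference of -0.029 log2 units, against 0.057 over all genes tested, of which 40% lay below 0. The differences ran from -0.35 for Cnksr2 to 0.49 for Eomes, and 29 of 31 were smaller than 0.4 in size. The limma fit called 0 of 31, with a background of 0.189% of all genes called, and the smallest adjusted p was 0.149, for Tiam1. At an unadjusted p below 0.05 there were 1 higher and 4 lower genes (background 12% higher and 6.7% lower). The 3 knockin arrays lay outside the range of the 3 wild type arrays for 5 genes, 2 lower and 3 higher, which is 16.1% of the genes against a background of 22.4% (7.24% lower and 15.1% higher). Over the 8 defining markers the differences ran from -0.28 to 0.29, and their 95% intervals together reached from -0.63 to 0.90, the widest being that of Slc17a7.

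Among the 5 receptor genes, which set how granule cells respond to GABA and glutamate, 3 lay below 0 and 2 above and none was called. Gabrd, the delta subunit that pairs with Gabra6 in extrasynaptic receptors for tonic inhibition, read 7.85, 7.95 and 8.02 in 118Q knockin arrays, 7.54, 7.75 and 7.66 in 118Q wild type arrays, 7.76, 7.88 and 7.78 in 11Q knockin arrays and 7.73, 7.84 and 7.44 in 11Q wild type arrays. All 3 118Q knockin arrays lay above all 3 of their littermates, by 0.29 ± 0.12 (limma adjusted p = 0.209). Gabra6 itself differed by -0.029 ± 0.095 in the same arrays (95% interval -0.23 to 0.18). Grin2c, the NMDA receptor subunit that granule cells take up as they mature, read 8.05, 8.21 and 8.22 in 118Q knockin arrays, 7.99, 7.73 and 7.56 in 118Q wild type arrays, 8.11, 8.03 and 8.28 in 11Q knockin arrays and 7.95, 8.20 and 7.26 in 11Q wild type arrays. Its 118Q knockin arrays again lay above their littermates, by 0.40 ± 0.20 (adjusted p = 0.297), and the last 11Q wild type array was the lowest of the 12.

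Gabrb2, the beta subunit that joins Gabra6 in synaptic receptors, read 8.64, 8.07 and 8.29 in 118Q knockin arrays, 8.63, 8.96 and 8.41 in 118Q wild type arrays, 8.82, 8.97 and 8.81 in 11Q knockin arrays and 8.98, 8.96 and 8.86 in 11Q wild type arrays. The 118Q knockin mean was lower, at -0.33 ± 0.16 (adjusted p = 0.281), with overlap between knockin and wild type arrays. Grm4, a presynaptic metabotropic glutamate receptor of parallel fibres, read 7.61, 7.93 and 7.88 in 118Q knockin arrays, 7.87, 7.97 and 7.67 in 118Q wild type arrays, 8.05, 8.35 and 8.47 in 11Q knockin arrays and 8.07, 8.11 and 7.59 in 11Q wild type arrays. Its 118Q knockin and wild type arrays overlapped almost wholly, with a difference of -0.030 ± 0.16 (95% interval -0.38 to 0.32).

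Of the 14 transcription factor and RNA regulator genes measured, 5 lay below 0 and 9 above in the 118Q comparison and none was called. Zic1, a zinc finger factor of granule precursors that stays on in the adult, read 10.42, 10.16 and 10.22 in 118Q knockin arrays, 10.39, 10.59 and 10.55 in 118Q wild type arrays, 10.58, 10.60 and 10.49 in 11Q knockin arrays and 10.71, 10.47 and 10.50 in 11Q wild type arrays. The 118Q knockin mean was lower, at -0.25 ± 0.11 (adjusted p = 0.252), and the first knockin array lay among the wild type arrays. The related genes Zic2, Zic4 and Zic5 differed by 0.057 ± 0.15, 0.17 ± 0.16 and 0.074 ± 0.11, so the family did not move one way. Neurod2, which follows Neurod1 in granule cell maturation, read 7.26, 7.25 and 7.10 in 118Q knockin arrays, 7.17, 7.09 and 6.84 in 118Q wild type arrays, 7.48, 7.48 and 7.36 in 11Q knockin arrays and 7.35, 7.32 and 6.81 in 11Q wild type arrays. Neurod1 and Neurod2 differed by -0.073 ± 0.093 and 0.17 ± 0.14, both with overlapping arrays.

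Nfia, Nfib and Nfix, the nuclear factor I proteins that time granule cell maturation, differed by -0.091 ± 0.11, -0.13 ± 0.13 and 0.018 ± 0.12. Pax6, a homeobox factor of the granule lineage, differed by 0.057 ± 0.088 (95% interval -0.13 to 0.25) and had the smallest spread within groups of the 31 genes, an SD of 0.054. Barhl1 and Barhl2, homeobox factors of rhombic lip derivatives, differed by 0.34 ± 0.20 and 0.26 ± 0.15, and Rbfox3 by -0.16 ± 0.13; none of these was called. Eomes, the T-box factor of unipolar brush cells, read 5.93, 7.13 and 6.80 in 118Q knockin arrays, 6.07, 6.83 and 5.49 in 118Q wild type arrays, 6.04, 5.53 and 5.46 in 11Q knockin arrays and 6.39, 5.23 and 6.88 in 11Q wild type arrays. Its arrays ranged widely in each group, with an SD within groups of 0.641, the largest of the list, and the 118Q difference of 0.49 ± 0.42 had a 95% interval of -0.43 to 1.41.

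The 8 secreted, adhesion and synaptic genes divided evenly in the 118Q comparison, 4 below 0 and 4 above, with none called. Reln, the secreted glycoprotein that positions Purkinje cells during development and is made by granule cells, read 8.58, 8.35 and 8.51 in 118Q knockin arrays, 8.84, 8.55 and 8.95 in 118Q wild type arrays, 9.16, 9.08 and 9.14 in 11Q knockin arrays and 8.97, 9.05 and 8.87 in 11Q wild type arrays. The 118Q knockin mean was lower, at -0.30 ± 0.12 (adjusted p = 0.197), with the highest knockin array just above the lowest wild type array. Cadps2, which primes dense-core vesicles for release at parallel fibre terminals, read 8.80, 8.98 and 9.02 in 118Q knockin arrays, 9.19, 9.15 and 9.19 in 118Q wild type arrays, 8.92, 9.05 and 9.04 in 11Q knockin arrays and 8.96, 9.19 and 9.19 in 11Q wild type arrays. All 3 118Q knockin arrays lay below their littermates, with a difference of -0.25 ± 0.10 (adjusted p = 0.225). Fat2, the giant protocadherin of parallel fibres, read 7.95, 7.90 and 8.20 in 118Q knockin arrays, 8.33, 8.09 and 8.46 in 118Q wild type arrays, 8.19, 8.64 and 8.79 in 11Q knockin arrays and 8.28, 8.59 and 8.34 in 11Q wild type arrays. Its 118Q difference was -0.28 ± 0.16 (adjusted p = 0.374), and the groups overlapped.

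Il16, whose long form is a PDZ protein of granule neurons, read 6.67, 6.72 and 6.75 in 118Q knockin arrays, 6.51, 6.59 and 6.35 in 118Q wild type arrays, 6.65, 6.73 and 6.78 in 11Q knockin arrays and 6.56, 6.75 and 6.41 in 11Q wild type arrays. It was higher in all 3 118Q knockin arrays than in any of their littermates, by 0.23 ± 0.11 (adjusted p = 0.275). Svep1, a large extracellular matrix protein, read 4.45, 4.51 and 4.77 in 118Q knockin arrays, 4.67, 4.35 and 4.51 in 118Q wild type arrays, 4.88, 4.78 and 4.66 in 11Q knockin arrays and 4.31, 4.66 and 4.13 in 11Q wild type arrays, and its 118Q groups overlapped, with a difference of 0.068 ± 0.15. Cbln3, Synpr, a synaptic vesicle membrane protein, and Slc17a7 differed by 0.010 ± 0.13, -0.15 ± 0.17 and 0.18 ± 0.33. Of these 3 genes none had separate groups, and the interval of Slc17a7, -0.54 to 0.90, left its direction undetermined.

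On their brightest probe sets all 4 intracellular signalling genes lay below 0 in the 118Q comparison, with a median of -0.24, and none was called. For each of them the other probe set above the filter stood above 0. These stood at 0.048 for Tiam1, 0.41 for Chn2, 0.22 for Vsnl1 and 0.11 for Cnksr2, so the direction depended on the probe set. Tiam1, an exchange factor that activates the small GTPase Rac, read 8.39, 8.27 and 8.33 in 118Q knockin arrays, 8.62, 8.48 and 8.82 in 118Q wild type arrays, 8.81, 8.82 and 8.77 in 11Q knockin arrays and 8.69, 8.80 and 8.82 in 11Q wild type arrays. All 3 118Q knockin arrays lay below their littermates, and the mean was lower, at -0.31 ± 0.10 (adjusted p = 0.149). Chn2, beta-chimaerin, which switches Rac off, differed by -0.17 ± 0.12. Vsnl1, a neuronal calcium sensor, differed by -0.18 ± 0.12, and Cnksr2, a postsynaptic scaffold of Ras signalling, by -0.35 ± 0.28. The last gene had an SD within groups of 0.412, and its interval ran from -0.95 to 0.26.

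**Figure D2:**
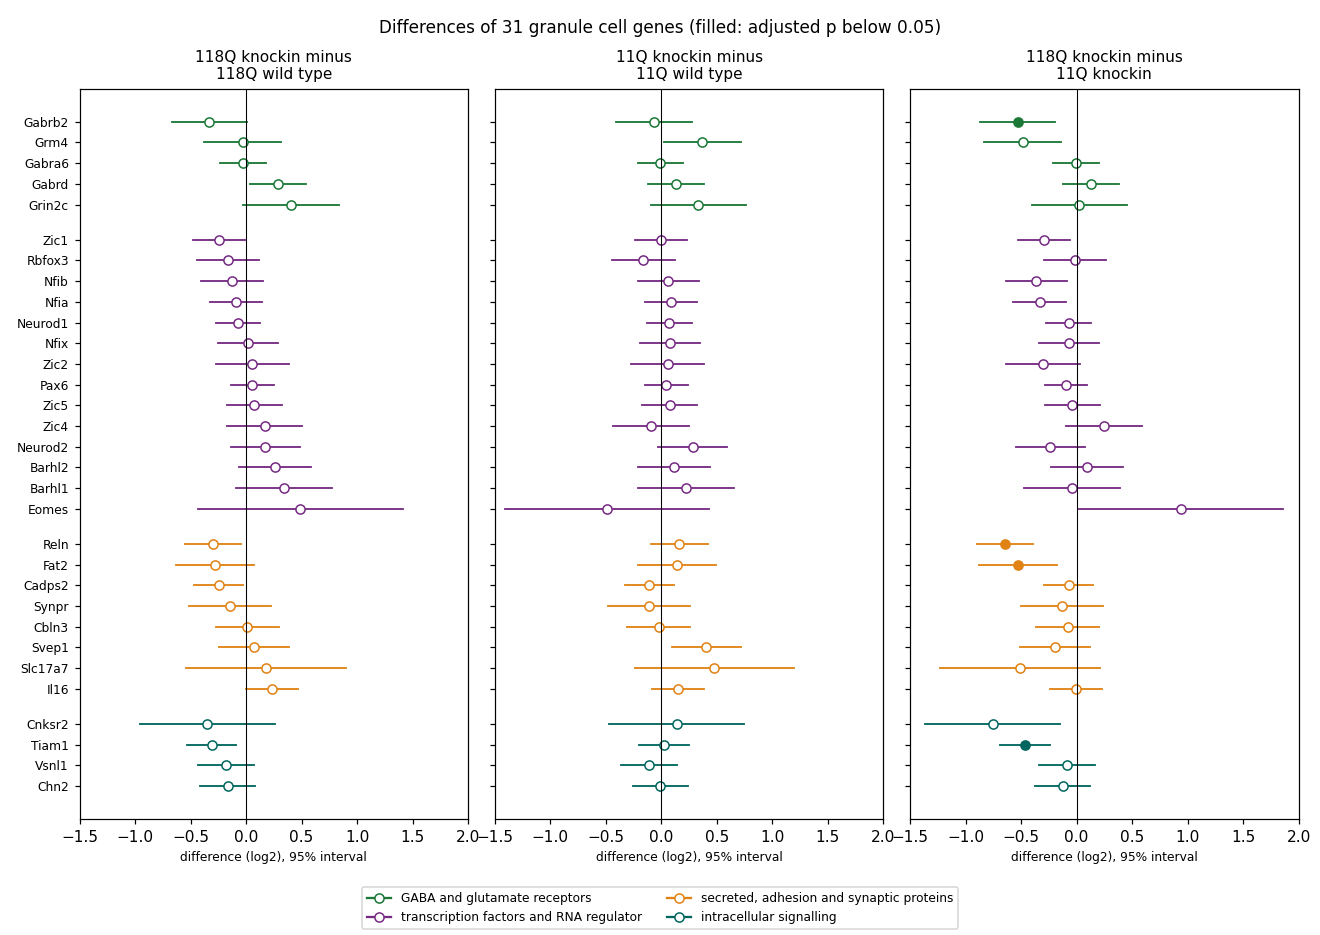
Fitted log2 differences of the 31 genes with 95% intervals, coloured by role, for 118Q knockin minus wild type, 11Q knockin minus wild type and 118Q knockin minus 11Q knockin; filled points have an adjusted p below 0.05. Filled points appear only in the right panel, for Gabrb2, Reln, Fat2 and Tiam1, all below 0.

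In 11Q knockin cerebella, set against wild type littermates, none of the granule cell genes was called either. The limma fit called 0 of 31 (background 0%) with a smallest adjusted p of 0.939, and at an unadjusted p below 0.05 there were 2 higher genes and 0 lower (background 4.23%, or 1.1% higher and 3.13% lower). The median difference was 0.073, against -0.035 over all genes, and 11 of 31 genes lay below 0 (background 59.3%). Svep1 had the smallest unadjusted p and was higher by 0.41 ± 0.15 (adjusted p = 0.939). Grm4 was higher by 0.37 ± 0.16, Neurod2 by 0.28 ± 0.14, Grin2c by 0.33 ± 0.20 and Slc17a7 by 0.48 ± 0.33, each with an adjusted p of 0.939. For these 5 genes the third 11Q wild type array was the lowest of its group. Without that array the differences were 0.29 for Svep1, 0.20 for Grm4, 0.11 for Neurod2, 0.061 for Grin2c and 0.081 for Slc17a7, and the median of the list was 0.031. Knockin and wild type arrays did not overlap for 3 genes, Vsnl1 lower (-0.11 ± 0.12) and Neurod2 and Reln (0.16 ± 0.12) higher, 9.68% of the genes against a background of 10.4% (7.17% lower and 3.24% higher). Gabra6 and Neurod1 differed by -0.0080 ± 0.095 and 0.073 ± 0.093, and Zic1 by -0.0021 ± 0.11.

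The difference between the knockin effects, the 118Q effect minus the 11Q effect, tests whether a gene's response depended on the line and its repeat. It was called for 0 of 31 granule cell genes (background 0%), with a smallest adjusted p of 0.376, for Reln, and at an unadjusted p below 0.05 for 0 higher and 2 lower genes (background 8.09% higher and 2.9% lower). The median was -0.066, against 0.078 over all genes, and 22 of 31 genes lay below 0 (background 37.7%). Reln had a difference of -0.46 ± 0.17 (95% interval -0.82 to -0.10) and Tiam1 of -0.34 ± 0.15 (-0.65 to -0.019). For Fat2 the value was -0.42 ± 0.23, for Grm4 -0.40 ± 0.23 and for Svep1 -0.34 ± 0.21, with adjusted p of 0.516, 0.533 and 0.557. The largest size was that of Eomes, 0.98 ± 0.60, with an interval of -0.32 to 2.28. Gabra6 and Neurod1 stood at -0.021 ± 0.13 and -0.15 ± 0.13. This contrast uses the arrays of both comparisons above, so its values are not separate evidence from theirs.

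Set directly against each other, the 118Q knockin and 11Q knockin cerebella differed in 4 of the granule cell genes, all lower in 118Q knockin arrays: Reln, Tiam1, Gabrb2 and Fat2. That is 12.9% of the 31 genes, against a background of 13.7% of all genes called. Reln was lower, at -0.64 ± 0.12, or 1.56-fold (limma adjusted p = 0.00867), and Tiam1 at -0.46 ± 0.10, or 1.38-fold (adjusted p = 0.0157). In both genes the 3 118Q knockin arrays lay below all 3 11Q knockin arrays, and the 118Q wild type arrays overlapped 1 of the 2 groups. Gabrb2 was lower, at -0.53 ± 0.16 (1.45-fold, adjusted p = 0.0429), also without overlap. Fat2 was lower, at -0.53 ± 0.16 (1.44-fold, adjusted p = 0.0487), and the highest 118Q knockin array just passed the lowest 11Q knockin array. None of the 4 was called against the 118Q knockin's own littermates, and the 2 comparisons share the 118Q knockin arrays.

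Over the list, 26 of 31 genes lay below 0 in 118Q knockin against 11Q knockin arrays, with a median of -0.095, against 0.093 and 37.5% below 0 over all genes. At an unadjusted p below 0.05 there were 9 lower genes and 1 higher (background 8.32% lower and 22.6% higher). The arrays of the 2 knockin groups did not overlap for 10 genes, all lower in 118Q knockin, which is 32.3% of the genes against a background of 38.1% in either direction and 11.6% lower. Besides Reln, Tiam1 and Gabrb2 these were Grm4 (-0.49 ± 0.16, adjusted p = 0.0611), Nfia (-0.33 ± 0.11, 0.0595), Nfib (-0.36 ± 0.13, 0.0773), Zic1 (-0.29 ± 0.11, 0.0884), Cnksr2 (-0.76 ± 0.28, 0.0877), Neurod2 (-0.24 ± 0.14, 0.281) and Pax6 (-0.095 ± 0.088, 0.497). Gabra6 stood at -0.0044 ± 0.095 and Gabrd at 0.13 ± 0.12. By role, 1 of 5 receptors, 0 of 14 transcription and RNA regulators, 2 of 8 secreted, adhesion and synaptic proteins and 1 of 4 signalling proteins were called.

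The 4 calls differed in how they held when arrays or array measures were taken out. Reln was called in all 12 fits that left out 1 array, with adjusted p from 0.00658 to 0.0387. Tiam1 was called in 9 of 12 and lost the call without 11Q knockin replicate 2 (adjusted p = 0.0544), 118Q knockin replicate 2 (0.0568) or 118Q knockin replicate 3 (0.0646). Gabrb2 was called in 4 of 12 fits, those without 118Q knockin replicate 1, 118Q wild type replicate 2 or 3, or 11Q wild type replicate 3, and its adjusted p ran from 0.0118 to 0.154. Fat2 was called in 3 of 12, those without 118Q wild type replicate 3, 11Q knockin replicate 1 or 11Q wild type replicate 3, with adjusted p from 0.0272 to 0.166. With the probe sets of a gene averaged, Gabrb2 stood at -0.27 (adjusted p = 0.166). With the 18S signal as covariate none was called: Reln stood at -0.24 (adjusted p = 0.708), Tiam1 at -0.057 (0.927), Gabrb2 at -0.53 (0.583) and Fat2 at -0.096 (0.930). In that fit 0 of 12672 genes were called, and the 18S signals of the 118Q knockin arrays, 8.56 to 9.23, did not overlap those of the 11Q knockin arrays, 10.10 to 10.36. With the trend of each array with gene span removed, Reln stayed called at -0.47 (adjusted p = 0.0374), while Tiam1 stood at -0.31 (0.0682), Gabrb2 at -0.43 (0.115) and Fat2 at -0.50 (0.0648).

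**Figure D3:**
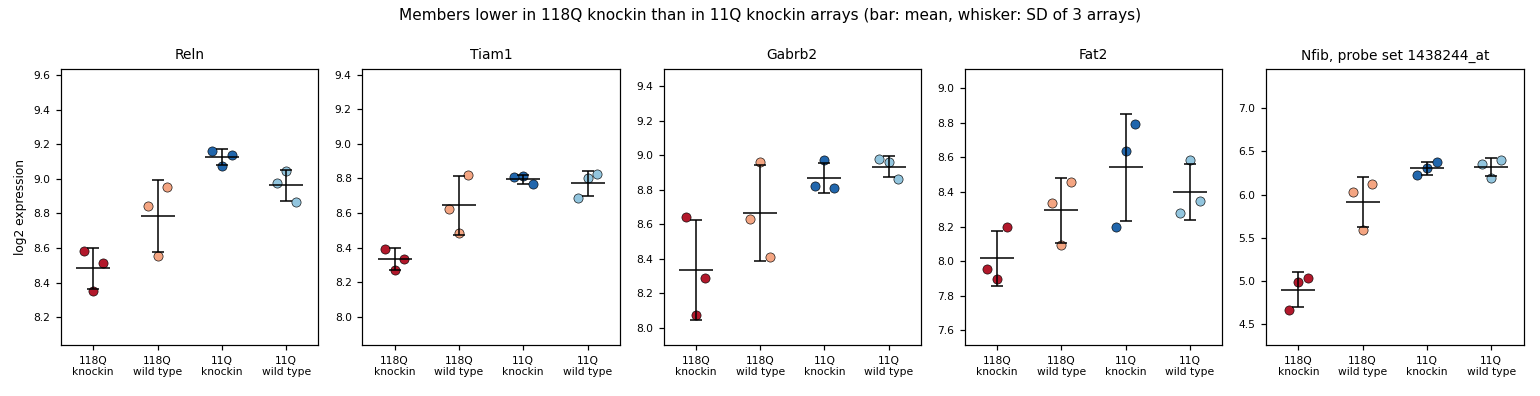
Log2 expression by array of the 4 genes called lower in 118Q knockin than in 11Q knockin arrays, and of 1 probe set of Nfib, with groups from left to right as 118Q knockin, 118Q wild type, 11Q knockin and 11Q wild type; bars are means and whiskers SD of 3 arrays. The 118Q knockin arrays are the lowest group in every panel.

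The wild type mice of the 2 lines, which carry no knockin allele, give the background of that direct comparison. In 118Q wild type against 11Q wild type arrays 0 of 31 genes were called (background 0%), and 0 had an unadjusted p below 0.05 (background 2.98%, 1.9% higher and 1.08% lower). Yet 26 of 31 genes lay below 0 here too, against 47.1% of all genes, with a median of -0.089 against 0.0094. Zic2 had the largest difference, -0.30 ± 0.15, followed by Cnksr2 at -0.27 ± 0.28 and Gabrb2 at -0.27 ± 0.16. Arrays did not overlap for 2 genes, Zic2 and Nfia (-0.15 ± 0.11), both lower, 6.45% of the genes against a background of 6.44% (2.44% lower). Reln differed by -0.18 ± 0.12, Tiam1 by -0.13 ± 0.10 and Fat2 by -0.11 ± 0.16 between the wild type groups. Without 11Q wild type replicate 1 the median was -0.032 with 18 genes below 0, and without 118Q wild type replicate 1 it was -0.034 with 19 below 0.

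Differences in 118Q knockin arrays went with gene span, both among the granule cell genes and over all genes tested. Of 13 granule cell genes spanning over 100 kb, 11 lay below 0 in 118Q knockin against wild type arrays, with a median of -0.17. All genes of that span had a median of -0.091 and 65.5% below 0. Of 15 granule cell genes under 30 kb, 3 lay below 0 (Gabra6, Neurod1 and Zic1), with a median of 0.17, against 0.11 and 28.9% below 0 over all genes of that span. Reln spans 460 kb, Tiam1 358 kb and Cadps2 578 kb, whereas Gabrd spans 13.1 kb and Grin2c 18.1 kb. The exceptions over 100 kb were Il16 and Svep1, at 0.23 and 0.068. These counts are of the brightest probe sets. All other probe sets of Nfia, which spans 541 kb, stood above 0, at 0.15 to 0.67. The other probe sets above the filter of Tiam1, Chn2, Vsnl1 and Cnksr2 also stood above 0. Most others of Nfib and Gabrb2 lay below 0. With a gene's probe sets averaged, 12 of the 31 genes lay below 0 in the 118Q comparison, against 16 on the brightest. The rank correlation of difference with span was -0.60 across the 31 genes and -0.35 across 12612 genes with a span, a description across genes measured on the same arrays. It was -0.18 across the 31 genes in the 11Q comparison, against -0.074 over all genes. In knockin against knockin it was -0.34, against -0.33 over all genes, and all 13 granule cell genes over 100 kb lay below 0. Between 118Q and 11Q wild type arrays it was -0.0105 across the 31 genes but -0.22 over all genes. There 10 of 13 granule cell genes over 100 kb and 13 of 15 under 30 kb lay below 0. The trend over all genes was thus not confined to comparisons with 118Q knockin arrays. With the span trend removed, the 118Q differences were -0.11 for Reln, -0.14 for Tiam1, -0.039 for Cadps2 and -0.37 for Zic1, and the median of the list came to 0.012. Under the 18S covariate Reln, Tiam1 and Fat2 stood near 0, at 0.0096, 0.0046 and 0.055, with none called. In that fit 0 of all genes were called in the 118Q comparison. The 18S signals of the 118Q knockin arrays, 8.56 to 9.23, did not overlap those of the 118Q wild type arrays, 9.66 to 10.32.

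**Figure D4:**
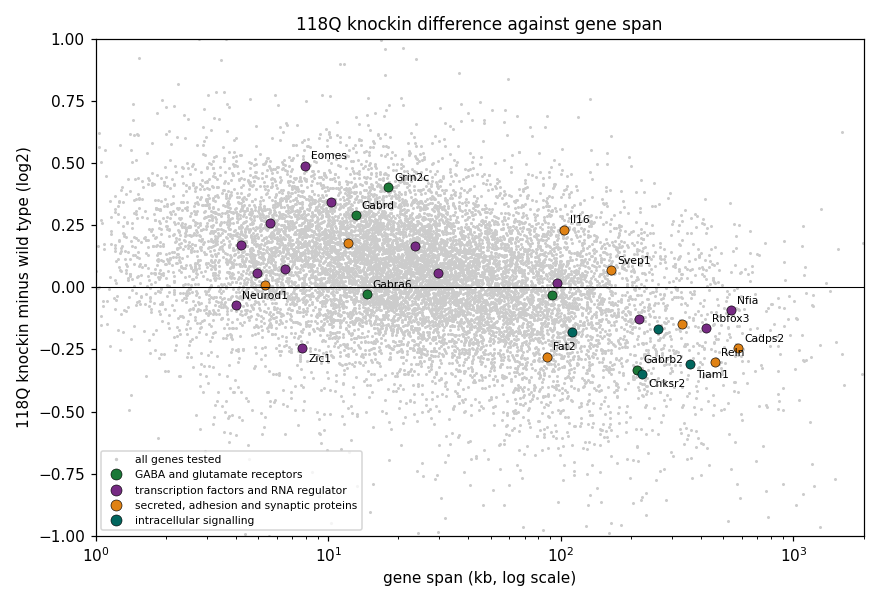
Log2 difference of 118Q knockin minus wild type arrays (vertical axis, drawn from -1 to 1, so larger differences are not shown) against gene span in kb on a log scale, for all genes tested in grey and the granule cell genes coloured by role. Short granule cell genes such as Gabrd and Grin2c lie above 0 and long ones such as Reln, Tiam1 and Cadps2 below, along the slope of the grey points.

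Other probe sets of the same genes were read as well. Of 77 probe sets of the 31 genes, 70 lay above the filter, and 39 of these were not the brightest of their gene. The sign was that of the brightest probe set for 22 of 39 in the 118Q comparison, 22 in the 11Q comparison and 27 in knockin against knockin. Gabrb2 had 4 others, at -0.30, -0.16, -0.084 and 0.43 in the 118Q comparison. The second probe set of Zic1 stood at -0.41 and the other of Neurod1 at -0.21. Those of Gabra6, Chn2, Vsnl1 and Cnksr2 stood at 0.20, 0.41, 0.22 and 0.11, opposite in sign to their brightest. The brightest of Gabra6 stood at -0.029. All others of Nfia stood above 0, at 0.15 to 0.67, against -0.091 for its brightest. The 3 probe sets of Zic5 stood at 0.074, -0.057 and 0.65. The second probe set of Tiam1, with a mean of only 3.30, stood at 0.048 ± 0.26 in the 118Q comparison. It was lower by a like amount in knockin against knockin (-0.86 ± 0.26) and between wild types (-0.80 ± 0.26), and was called in neither.

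The fifth brightest of the 7 Nfib probe sets departed from the rest of its gene and was singled out after its values were seen. It read 4.67, 4.99 and 5.04 in 118Q knockin arrays, 6.03, 5.59 and 6.13 in 118Q wild type arrays, 6.23, 6.30 and 6.37 in 11Q knockin arrays and 6.35, 6.20 and 6.40 in 11Q wild type arrays. All 3 118Q knockin arrays lay below the other 9. When 22778 probe sets with a symbol were tested one by one, its 118Q difference was -1.02 ± 0.15 (limma adjusted p = 0.0315; background 0.079% of probe sets called) and its knockin against knockin difference -1.40 ± 0.15 (adjusted p = 0.00157; background 9.94%). Its 11Q difference was -0.014 ± 0.15. The other 6 Nfib probe sets stood between -0.28 and 0.066 in the 118Q comparison, and none of them was called in it. In knockin against knockin all 6 were lower, at -0.53 to -0.36, and 2 of them were called, at -0.47 (adjusted p = 0.0168) and -0.42 (adjusted p = 0.0398), while the brightest, which stands for the gene above, was not (-0.36, adjusted p = 0.0968). The difference between the knockin effects for this probe set was -1.002 ± 0.21 (adjusted p = 0.364).

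Wider lists of granule cell genes were chosen with earlier results of these data known. Of 17 other receptor, channel and synaptic adhesion genes, 10 were tested and 0 called in the 118Q comparison, 6 below 0, with a median of -0.043. Nrxn3, a presynaptic adhesion protein, was lower, at -0.27 ± 0.097 (adjusted p = 0.171) and Kcnd2, an A-type potassium channel of granule cells, at -0.27 ± 0.098 (adjusted p = 0.181), while Kcnk3, a leak potassium channel, stood at 0.40 ± 0.20. In knockin against knockin 1 of these 10, Nrxn3, was called (-0.37 ± 0.097, adjusted p = 0.0275), with a background of 13.7% of all genes called. Of 11 precursor and proliferation genes, 8 were tested and 0 called, 7 below 0, with a median of -0.16. Atoh1, the factor of granule precursors, and the division genes Mki67 and Top2a lay below the filter. Ptch1, the Sonic hedgehog receptor, stood at -0.19 ± 0.11, Gli1, its target, at 0.33 ± 0.23 and Mycn at -0.19 ± 0.19.

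Of 16 migration and maturation genes, 15 were tested and 0 called in the 118Q comparison, 9 below 0, with a median of -0.054. Astn1, the adhesion protein with which granule neurons migrate along glia, averaged 5.53 ± 0.18 in 118Q knockin and 6.12 ± 0.053 in 118Q wild type arrays, and 6.13 ± 0.062 in 11Q knockin and 6.17 ± 0.069 in 11Q wild type arrays. The 118Q knockin difference was -0.59 ± 0.11 against littermates (adjusted p = 0.0527) and -0.60 ± 0.11 against 11Q knockin arrays (adjusted p = 0.00814). Nfasc, an adhesion protein of axons, stood at -0.29 ± 0.13 and Dcx, a microtubule protein of migrating neurons, at 0.24 ± 0.21 against littermates. In knockin against knockin 5 of the 15 were called, with a background of 13.7%: Astn1, Nfasc (-0.58 ± 0.13), Plxna2 (-0.49 ± 0.11) and Mef2d (-0.40 ± 0.11) were lower and Meis2 (0.98 ± 0.30) was higher, the last 3 being named here after their values were seen. With the 18S signal as covariate none of these 5, nor Nrxn3, was called, with adjusted p from 0.237 to 0.703. Over 26 alternative fits Astn1 was called in 25, Plxna2 in 23, Nfasc in 21, Nrxn3 in 19 and Mef2d in 18. Meis2 was called in 12 of 25. With a gene's probe sets averaged, Mef2d stood at -0.014 (limma adjusted p = 0.942), while the others stayed called. With the gene span trend removed, Nrxn3 stood at -0.095 (adjusted p = 0.591) and Nfasc at -0.49 (0.0661). Astn1, Plxna2, Mef2d and Meis2 stayed called in that fit.

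Markers of other cell types were read on the same arrays, and some were called. Of 12 Purkinje cell markers 9 were tested, 8 lay below 0 against littermates, with a median of -0.69, and 2 were called, with a background of 0.189% of all genes: Slc1a6, a glutamate transporter, at -1.13 ± 0.20 (adjusted p = 0.0466), and Atp2a2, a calcium pump that other cells also use, at -0.69 ± 0.12 (adjusted p = 0.0466). These calls lie near the threshold: Slc1a6 was called in 7 and Atp2a2 in 8 of 27 alternative fits, and with the 18S signal as covariate they stood at -0.55 and -0.29 (adjusted p = 0.786 and 0.797). Dner, a Notch ligand, stood at -1.04 ± 0.23 (adjusted p = 0.066). Their summed level on the log2 scale was 12.60 to 13.02 in 118Q knockin and 13.19 to 13.24 in 118Q wild type arrays, and 13.14 to 13.27 in 11Q knockin and 13.15 to 13.24 in 11Q wild type arrays. Of 9 interneuron markers 8 were tested, 7 lay below 0, with a median of -0.48, and 0 were called: Gad1 stood at -0.79 ± 0.24, Slc32a1 at -0.74 ± 0.23 and Kit at -0.58 ± 0.21. Their summed level was 9.50 to 10.41 in 118Q knockin and 10.34 to 10.63 in 118Q wild type arrays, and 10.55 to 10.65 in 11Q knockin and 10.49 to 10.70 in 11Q wild type arrays.

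Of 11 microglia markers 9 were tested, all 9 lay above 0, with a median of 0.66, and 1 was called, Trem2 at 0.77 ± 0.13 (adjusted p = 0.0466; background 0.189%), with Tyrobp at 1.03 ± 0.19 and Cd68 at 1.08 ± 0.28. Trem2 was called in 9 of 26 alternative fits, and in the fit of only the groups compared its adjusted p, like that of Slc1a6 and Atp2a2, was 0.192. Aif1 and Itgam, 2 further microglia markers, lay below the filter. The summed level of the 9 was 8.09 to 8.44 in 118Q knockin and 7.73 to 7.92 in 118Q wild type arrays, and 7.27 to 7.66 in 11Q knockin and 7.43 to 7.82 in 11Q wild type arrays. Astrocyte and Bergmann glia markers had a median of 0.0071 over 9 genes, with Gfap at 0.57 ± 0.23, Slc1a3 at -0.39 ± 0.19 and Aldoc at -0.19 ± 0.098, and oligodendrocyte markers 0.13 over 7, with Mobp at 0.66 ± 0.19, Mal at 0.39 ± 0.21 and Mbp at -0.19 ± 0.12. Choroid plexus genes varied widely within every group but the 11Q wild type: Ttr ranged from 5.26 to 11.9 over the 12 arrays, and the median of 7 genes was -0.18 in the 118Q comparison and -2.17 in the 11Q comparison, with Clic6 at -0.68 ± 0.83, Otx2 at 0.15 ± 0.21 and Kcnj13 at -0.41 ± 1.02 in 118Q knockin arrays. Of 5 unipolar brush cell markers listed besides Eomes, only Otx2 was tested. The part of these other cell types in the granule cell results was not tested.

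By array, the median deviation of the 31 granule cell genes from their means over all 12 arrays was -0.084 to -0.023 in 118Q knockin and -0.071 to 0.0049 in 118Q wild type arrays, and 0.068 to 0.11 in 11Q knockin and 0.028 to 0.10 in 11Q wild type arrays. The 118Q knockin and wild type ranges overlapped, and 5 of these 6 medians lay below 0 while all 6 of the 11Q arrays lay above it. For the Purkinje cell list the same measure was -0.75 to -0.099 in 118Q knockin and 0.12 to 0.27 in 118Q wild type arrays. The summed level of the 31 granule cell genes was 13.48 to 13.59 in 118Q knockin and 13.58 to 13.70 in 118Q wild type arrays, and 13.67 to 13.74 in 11Q knockin and 13.66 to 13.71 in 11Q wild type arrays.

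**Figure D5:**
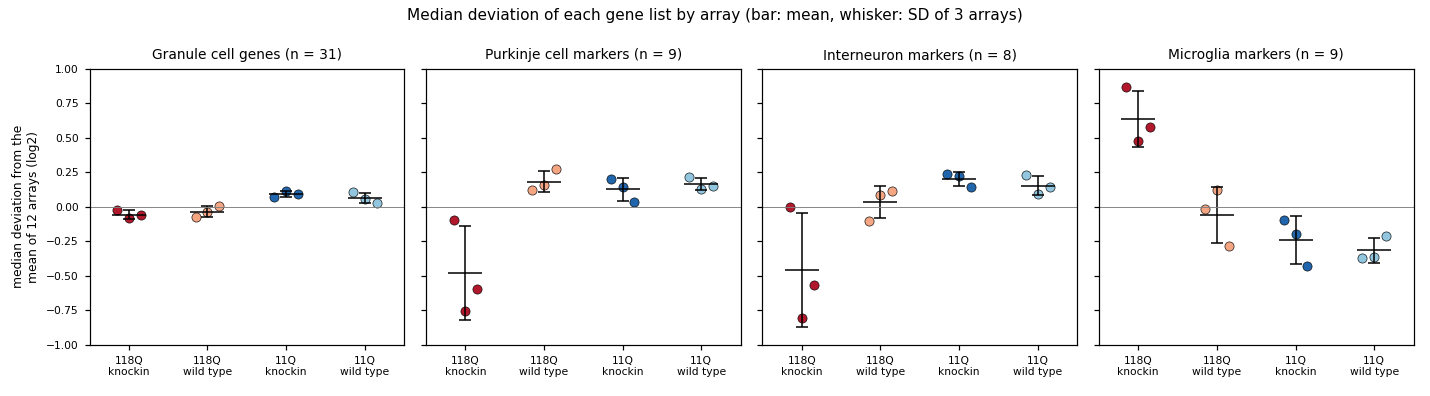
Median log2 deviation of each gene list from the mean of 12 arrays, by array, for the granule cell genes and for markers of Purkinje cells, interneurons and microglia, with groups from left to right as 118Q knockin, 118Q wild type, 11Q knockin and 11Q wild type; bars are means and whiskers SD of 3 arrays. The granule cell medians stay between -0.084 and 0.11, while the other 3 lists set the 118Q knockin arrays apart, apart from the first 118Q knockin array for interneurons.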

How the data were processed

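RNA from whole cerebellum of 12 mice, 3 in each of 4 groups, was measured on expression arrays. The values are log2 expression per probe set as the authors deposited them, made with RMA per the submitters' processing notes; its version is not given in the sources used here. They were normalised no further. Of 45101 probe sets, 34958 were annotated with 1 gene symbol, 932 with several and 9211 with none listed. Probe sets with a mean in the lowest 40% were removed, which left 27060 with a mean above 1.58, and the brightest probe set of each symbol stood for its gene, 12672 in all.

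One group-means model over the 12 arrays was fitted with limma 3.58.1 in R 4.3.3 (lmFit and eBayes, 8 residual and 4.61 prior degrees of freedom), and p-values were adjusted by Benjamini-Hochberg over all genes. The median standard error was 0.139 for the 118Q effect and 0.197 for the difference between effects, and 3 arrays a group limit the precision. On simulated arrays of 12672 genes with these spreads, the fit recovered 91 of 100 genes changed by 1 log2 unit and 31 of 100 changed by 0.5 in 118Q knockin against littermates, 86 and 32 of 100 in knockin against knockin, and 62 and 3 of 100 for the difference between effects. The simulated noise was independent for each gene and array, and changes were put into 118Q knockin arrays only. Shifts shared by many genes of an array were not simulated, so these recoveries need not hold for the real arrays. The 5 comparisons share arrays, and no batch is given in the labels. Genes given by array were the 8 defining markers, every member called in any comparison, and the 6 members with the smallest unadjusted p in the 118Q effect, the 11Q effect and their difference; of each other list, up to 3 genes with the smallest p in the 118Q effect were named. Members, lists and this rule were chosen with earlier results of these data known. Alternatives changed the filter, probe set choice, normalisation, variance model, arrays and covariates. Gene spans and promoters came from RefSeq on GRCm38.p6, and the build of the array annotation is not given in the sources used here.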

Additional observations from a re-analysis of the deposited data

How the results depend on the processing

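No member reversed a call, and the number called stayed at 0 in the 118Q, 11Q, difference and wild type comparisons under all alternatives run, except 3 called with array weights in the 118Q comparison (Gabrd, Zic1 and Gabrb2), where 1939 genes in all were called. In 118Q knockin against 11Q knockin, the main fit called 4 members and 1732 of all genes, and counts of all genes called follow in brackets. With no filter 2 members were called (1516), and 2 with each probe set tested on its own (1334). Also 2 were called with the gene span trend removed (819) and 2 with the Ttr level as covariate (1334). There were 12 with array weights (5312), 7 without both wild type replicates 3 (2491) and 0 with the 18S signal as covariate (0). Leaving out single arrays gave 1 to 6 (319 to 2274). The Ttr covariate and the fit without both wild type replicates 3 were chosen after seeing the data. The member median in the 118Q comparison was 0.068 with a gene's probe sets averaged and 0.012 with the span trend removed, and -0.074 to -0.011 when single arrays were left out. In the 11Q comparison it was 0.031 without both wild type replicates 3, and 0.031 to 0.079 when single arrays were left out. For the difference between the effects it was -0.11 with quantile normalisation, -0.10 with array weights, -0.14 with 18S, -0.12 with the span trend removed and -0.14 to -0.024 when single arrays were left out. For knockin against knockin it was -0.15 with quantile normalisation, -0.13 with array weights, -0.23 with 18S, -0.18 with the span trend removed and -0.19 to -0.081 when single arrays were left out. Between wild types it was -0.15 without both replicates 3 and -0.11 to -0.032 when single arrays were left out. The cause of these shifts was not tested. With the replicate block the medians were -0.029, 0.073 and -0.066 in the first 3 comparisons with 0 members called, and 5, 0 and 0 of all genes called, against 24, 0 and 0 without it. That block, within a line, cannot compare lines. A replicate block shared by both lines, chosen after seeing the data, gave 4 members called and a median of -0.095 in knockin against knockin, 0 called and -0.089 between wild types, and changed no other member count. Correlations of same-numbered mice were -0.079, -0.11 and -0.029 within the 118Q line and 0.19, -0.17 and 0.013 within the 11Q line. Across lines they were 0.014, -0.085 and -0.26 for knockin and 0.26, 0.0008 and 0.45 for wild type mice, so no pair of groups had all 3 above 0.1 and the numbers were not taken as pairs.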

Other observations

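Single arrays held many of the extremes of the 31 granule cell genes. 118Q knockin replicate 2 was the lowest of the 12 for 9 genes, 11Q wild type replicate 3 for 8 and 118Q wild type replicate 3 for 4. 11Q wild type replicate 1 was the highest for 6 genes, and 118Q wild type replicate 3 and 11Q knockin replicate 3 for 5 each. Replicate 3 of the 118Q wild type and of the 11Q wild type had deviations from their group means that correlated at 0.447 across genes. Within the 31 genes, the rank correlation of an array's deviations with gene span was -0.53 to -0.33 in 118Q knockin and -0.13 to 0.53 in 118Q wild type arrays, and -0.017 to 0.10 in 11Q knockin and -0.21 to 0.42 in 11Q wild type arrays.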
